A study of Mus musculus with 9 samples.

Results

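The 4 adult globin genes and 3 further genes of the red cell lineage were followed in mouse lumbar dorsal root ganglia after local treatment with a platinum drug. They are the rows with the symbols Hbb-bs, Hbb-bt, Hba-a1, Hba-a2, Alas2, Trim10 and Slc4a1, which make up 7 of the 38926 genes in each count table, and all 7 passed the filter on low counts that left 17348 genes tested. The ganglia came from wild-type male C57BL/6 mice, 8 to 10 weeks old, and were taken at L3 to L5 on the treated side. Mice had received cisplatin, oxaliplatin or vehicle by injection into the paw, and each drug amounted to 40 µg in total; what the vehicle contained and when the ganglia were taken are not used here. Each group had 3 libraries of stranded total RNA, and each library was a pool of 4 animals, so the spread between libraries is the spread between pools and says nothing of single animals.

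Haemoglobin is a tetramer of alpha and beta globin chains, each holding a haem group, and it is the main protein of red blood cells. Its genes are switched on in erythroblasts of the marrow by factors such as GATA1 and KLF1; circulating red cells have lost the nucleus, but young ones, the reticulocytes, still carry globin mRNA. In a ganglion, neurons and glia express their own globins, neuroglobin and cytoglobin, while the adult alpha and beta genes are best known from blood.

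The 4 globin genes form near-identical pairs, which bears on every count given here. On GRCm38, Hbb-bs lies on the minus strand of chromosome 7 at 103826534 to 103828096 and Hbb-bt at 103812524 to 103813996 on the same strand. Hba-a1 lies on the plus strand of chromosome 11 at 32283511 to 32284465 and Hba-a2 at 32296489 to 32297298. In GENCODE M21 transcripts, the 444 coding bases of Hbb-bs and Hbb-bt differ at 1 position, C417T, and the 429 coding bases of Hba-a1 and Hba-a2 differ at 1 position, C381T. Positions are counted from the A of the start codon, and the base of Hbb-bs or Hba-a1 is given first. The 30 coding bases around each difference are shown because they are the only coding stretches that tell the copies apart, with the differing base in capitals:
Hbb-bs: gtggctggagtggcCgctgccctggctcac
Hbb-bt: gtggctggagtggcTgctgccctggctcac
Hba-a1: catgcctctctggaCaaattccttgcctct
Hba-a2: catgcctctctggaTaaattccttgcctct

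The longest run without a mismatch was 430 bases between the beta mRNAs and 415 bases between the alpha mRNAs, and the reads were 75 bases long. Of the windows of 75 bases along each mRNA, 64.3% in Hbb-bs, 56.6% in Hbb-bt, 62.2% in Hba-a1 and 81.0% in Hba-a2 also occurred in the other copy. A read from such a window aligns to both copies and was assigned to no gene, so each globin count comes from the rest of the mRNA and understates the gene. Alas2 shared 12.1% of its windows with Apex2, the gene next to it, and Trim10 and Slc4a1 shared none. The share is a property of the sequence and is the same in all libraries.

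Upstream sequences are shown because the 7 genes moved together in these libraries. They are the 250 bases before the RefSeq start on GRCm38.p6, which were found for 6 of the 7 genes. Capitals mark 4 kinds of letters, searched on both strands. The first is a GATA motif, taken as AGATAA or, with the last base changed, as AGATAG, and the same pair with T as the first base, which is TGATAA or, when it ends differently, TGATAG. The next is a CACC motif, taken as CCACCC or, in its longer form, as CACACCC. The others are the box CCAAT, named for its letters, and a TATA motif, taken as ATATAA.
Hbb-bs, chr7:103827929-103828178, minus strand: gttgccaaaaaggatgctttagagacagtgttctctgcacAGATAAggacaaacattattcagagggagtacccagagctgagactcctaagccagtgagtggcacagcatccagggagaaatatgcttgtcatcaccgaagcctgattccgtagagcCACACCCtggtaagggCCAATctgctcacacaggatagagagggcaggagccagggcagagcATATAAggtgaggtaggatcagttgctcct
Hbb-bt, chr7:103813924-103814173, minus strand: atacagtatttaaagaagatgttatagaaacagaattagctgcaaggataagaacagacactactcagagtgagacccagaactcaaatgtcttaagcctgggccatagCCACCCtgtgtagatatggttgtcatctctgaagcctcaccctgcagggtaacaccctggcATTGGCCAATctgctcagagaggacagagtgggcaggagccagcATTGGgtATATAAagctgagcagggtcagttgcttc
Hba-a1, chr11:32283422-32283671, plus strand: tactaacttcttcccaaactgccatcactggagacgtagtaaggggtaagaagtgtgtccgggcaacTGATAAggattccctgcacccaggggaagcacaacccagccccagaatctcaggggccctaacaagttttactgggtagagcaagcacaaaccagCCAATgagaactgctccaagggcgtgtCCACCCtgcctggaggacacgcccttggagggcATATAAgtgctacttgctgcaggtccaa
Alas2, chrX:150547167-150547416, plus strand: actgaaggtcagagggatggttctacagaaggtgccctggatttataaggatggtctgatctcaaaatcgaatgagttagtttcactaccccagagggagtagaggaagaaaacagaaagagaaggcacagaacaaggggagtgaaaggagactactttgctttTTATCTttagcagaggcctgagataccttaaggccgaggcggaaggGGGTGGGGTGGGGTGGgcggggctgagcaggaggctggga
Trim10, chr17:36869324-36869573, plus strand: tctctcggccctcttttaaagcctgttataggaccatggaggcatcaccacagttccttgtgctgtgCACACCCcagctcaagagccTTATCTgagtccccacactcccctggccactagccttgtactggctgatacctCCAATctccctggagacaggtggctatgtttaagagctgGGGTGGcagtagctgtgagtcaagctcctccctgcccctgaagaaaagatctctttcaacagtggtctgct

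The Hba-a2 sequence (chr11:32296242-32296491, plus strand) was identical to that of Hba-a1 over the 247 bases that aligned, whereas the beta pair was 74.3% identical over 241 aligned bases. The GATA letters were found in 5 of the 6 sequences and not in that of Hbb-bt, against 26.6% of 32817 RefSeq promoter windows of this length. The CACC letters were in all 6, against 32.7% of windows, and 3 copies of CCACCC on the minus strand overlapped by a base each in Alas2. CCAAT was in 5, all but Alas2, against 33.8% of windows. The TATA letters were in the 4 globin sequences, against 9.1% of windows. Hbb-bs, Hba-a1 and Hba-a2 held all 4 motifs, as did 0.274% of windows. A match is a string of letters and not a bound site. The shares of windows describe the sequences and are no test, and the identical alpha sequences are not separate cases. Any part of these sequences in the genes' moving together was not tested.

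Reads assigned to genes numbered 31971613 to 38168902 in the cisplatin libraries, 35520144 to 38808509 in the oxaliplatin libraries and 22819185 to 32022672 in the vehicle libraries. Vehicle library 2 differed from the rest, with 51.0% of reads mapped more than once (25.9 to 33.8% elsewhere) and a TMM factor of 0.700 (0.960 to 1.10 elsewhere). The other vehicle libraries also differed from the drug libraries. Of reads mapped once, 16.6 to 19.1% fell on no counted feature in the 6 drug libraries, against 26.2 to 47.7% in the 3 vehicle libraries. The annotation of the counting is not known, so such reads need not lie outside genes. Reads that fell on more than 1 gene were 0.467 to 0.501% of reads mapped once in the drug libraries, against 0.223 to 0.408% in the vehicle libraries. TMM factors were 1.04 to 1.10 in the drug libraries and 0.700 to 0.961 in the vehicle libraries. These measures of library make-up move with each drug's comparison with vehicle, and their part in the results was not tested. Main results are also given without vehicle library 2. Levels are CPM, counts scaled to library totals of equal size with TMM factors applied, and 3 counts, taken as the detection floor, correspond to 0.0711 to 0.188 CPM. Markers of the ganglion were abundant in all 9 libraries: the 16 neuron and glia genes listed summed to 16957 to 17477 CPM with cisplatin, 16438 to 17110 CPM with oxaliplatin and 16742 to 17837 CPM with vehicle. Single markers nevertheless moved in both directions: 5 of the 16 rose and 5 fell with cisplatin, and 2 rose and 5 fell with oxaliplatin. Of all tested genes, 15.8% rose and 22.9% fell with cisplatin at an adjusted p under 0.05 (edgeR), and 17.5% rose and 24.1% fell with oxaliplatin. Kcnj10, a potassium channel of satellite glia, fell by 0.76 ± 0.11 on the log2 scale with cisplatin (adjusted p = 0.000288, edgeR) and by 0.96 ± 0.11 with oxaliplatin (adjusted p = 5.79e-05). Nefm, a neurofilament gene of large neurons, fell by 0.59 ± 0.11 with cisplatin (adjusted p = 0.00114, edgeR) and by 0.58 ± 0.11 with oxaliplatin (adjusted p = 0.00113), calls that were lost when library totals alone set the scale. The part of these shifts in the globin result was not tested.

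All 4 globin genes, Alas2 and Trim10 were higher in ganglia of cisplatin-treated and of oxaliplatin-treated mice than in vehicle ganglia, by 2.90-fold to 4.08-fold. Slc4a1 was 2.54-fold higher with cisplatin and missed the threshold with oxaliplatin. The globins were rare RNAs throughout: the 4 together summed to 86.9 to 190 CPM with cisplatin, 77.8 to 189 CPM with oxaliplatin and 35.1 to 46.9 CPM with vehicle. As a share of gene reads they were 0.009 to 0.0208% with cisplatin, 0.00816 to 0.0205% with oxaliplatin and 0.00328 to 0.00382% with vehicle. In pooled whole tissue, more cells of a type and more RNA per cell cannot be told apart.

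Hbb-bs, the beta globin with more reads, had 125, 111 and 56.7 CPM in cisplatin libraries 1 to 3, 52.8, 125 and 125 CPM in oxaliplatin libraries 1 to 3, and 24.0, 29.3 and 26.6 CPM in vehicle libraries 1 to 3. The lowest drug library was well above the highest vehicle library, and the drug libraries themselves spread 2.21-fold (cisplatin) and 2.37-fold (oxaliplatin) between highest and lowest, against 1.22-fold in vehicle. The log2 fold change was 1.89 ± 0.33 for cisplatin (SE, adjusted p = 0.00103, edgeR quasi-likelihood test with Benjamini-Hochberg adjustment over all genes tested) and 1.93 ± 0.33 for oxaliplatin (adjusted p = 0.000806, edgeR). Hbb-bt, its neighbour, had 30.5, 31.3 and 13.0 CPM with cisplatin, 11.3, 26.1 and 27.9 CPM with oxaliplatin, and 5.29, 7.58 and 5.88 CPM with vehicle. Again no drug library overlapped the vehicle libraries, and cisplatin library 3 and oxaliplatin library 1 were the low ones. Hbb-bt rose by a log2 fold change of 2.03 ± 0.39 for cisplatin (adjusted p = 0.00168, edgeR) and 1.83 ± 0.39 for oxaliplatin (adjusted p = 0.00289, edgeR).

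The alpha globins followed the beta globins library by library. Hba-a1 had 20.5, 20 and 10.2 CPM with cisplatin, 8.08, 17.6 and 22.2 CPM with oxaliplatin, and 3.41, 6.33 and 4.19 CPM with vehicle. The groups did not overlap, although oxaliplatin library 1 and vehicle library 2 came close. Hba-a1 rose by a log2 fold change of 1.92 ± 0.39 for cisplatin (adjusted p = 0.00235, edgeR) and 1.84 ± 0.39 for oxaliplatin (adjusted p = 0.00276, edgeR). Hba-a2 had 13.8, 13.2 and 6.97 CPM with cisplatin, 5.68, 12.5 and 14.1 CPM with oxaliplatin, and 2.44, 3.76 and 3.15 CPM with vehicle. Its log2 fold change was 1.90 ± 0.37 for cisplatin (adjusted p = 0.00178, edgeR) and 1.82 ± 0.37 for oxaliplatin (adjusted p = 0.00206, edgeR).

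Alas2 encodes the erythroid aminolevulinate synthase, which makes the first precursor of haem; it lies on chromosome X at 150547375 to 150570638, plus strand. It had 8.80, 7.81 and 4.2 CPM with cisplatin, 3.27, 7.56 and 8.14 CPM with oxaliplatin, and 1.42, 1.88 and 2.02 CPM with vehicle, from 30 to 62 reads per vehicle library. The groups did not overlap. Alas2 rose by a log2 fold change of 1.97 ± 0.38 for cisplatin (adjusted p = 0.00187, edgeR) and 1.83 ± 0.38 for oxaliplatin (adjusted p = 0.00265, edgeR). Trim10, a RING-finger protein needed in mouse cells for terminal erythroid differentiation, lies on chromosome 17 at 36869574 to 36877833, plus strand, and was the least abundant of the 7. It had 1.69, 1.93 and 1.22 CPM with cisplatin, 0.516, 1.47 and 1.48 CPM with oxaliplatin, and 0.262, 0.438 and 0.488 CPM with vehicle. Its counts in vehicle were 7, 7 and 15, and oxaliplatin library 1, with 21 reads, was only just above the vehicle libraries. Trim10 rose by a log2 fold change of 2.03 ± 0.42 for cisplatin (adjusted p = 0.00292, edgeR) and 1.54 ± 0.44 for oxaliplatin (adjusted p = 0.015, edgeR). The oxaliplatin call was lost with limma-voom (adjusted p = 0.0502) and without oxaliplatin library 2, oxaliplatin library 3 or vehicle library 1, where the log2 fold change was as low as 1.31 and the adjusted p as high as 0.0719.

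Slc4a1 encodes band 3, the anion exchanger of the red cell membrane, which the acid-secreting cells of the kidney also make; it lies on chromosome 11 at 102348824 to 102366203, minus strand. It had 15.2, 14 and 8.00 CPM with cisplatin, 4.18, 10.1 and 11.1 CPM with oxaliplatin, and 3.04, 7.96 and 4.49 CPM with vehicle. The cisplatin libraries were above all vehicle libraries, though cisplatin library 3 barely cleared vehicle library 2, and oxaliplatin library 1 fell among the vehicle libraries. The log2 fold change was 1.34 ± 0.39 for cisplatin (adjusted p = 0.0164, edgeR) and 0.79 ± 0.39 for oxaliplatin (95% interval -0.07 to 1.65, adjusted p = 0.126, edgeR). The oxaliplatin value depended on single libraries: without vehicle library 2 the log2 fold change was 1.18 ± 0.41 (adjusted p = 0.0373, edgeR). Leaving out oxaliplatin library 1 likewise brought the gene past the threshold (adjusted p = 0.0121, edgeR). The cisplatin call was lost without cisplatin library 1, cisplatin library 2, vehicle library 1 or vehicle library 3, with a log2 fold change as low as 1.09 and an adjusted p as high as 0.0802.

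**Figure D1:**
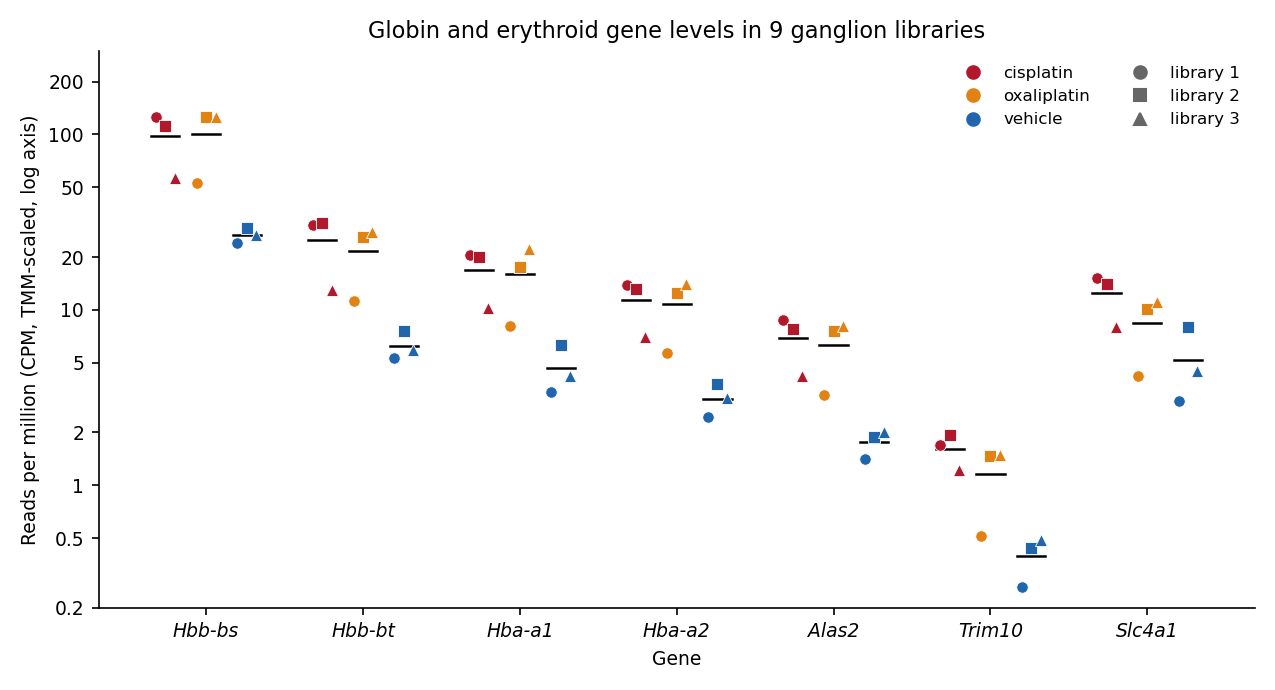
Level of each gene in each library, in TMM-scaled CPM on a log axis; colours are the groups, symbols the library numbers and black lines the group means. Cisplatin library 3 (triangle) and oxaliplatin library 1 (circle) are the lowest drug libraries for every gene, and only for Slc4a1 does a drug library fall among the vehicle libraries.

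Of the 7 genes, 7 were called higher with cisplatin, where 15.8% of all 17348 tested genes were called higher, 22.9% lower and 38.7% in either direction at an adjusted p under 0.05. With oxaliplatin 6 of 7 were called higher, where 17.5% of tested genes were called higher, 24.1% lower and 41.6% in either direction. Calls were thus common in both comparisons. With cisplatin 6 of 7 were called and at least 3-fold higher, as were 0.576% of tested genes. With oxaliplatin 5 of 7 were, as were 0.484% of tested genes. The 7 genes were chosen with earlier results of these data known, so comparisons with all genes here describe them and are no test. The groups did not overlap for 7 genes with cisplatin and 6 with oxaliplatin, against 21.3% of tested genes with every cisplatin library, and 23.1% with every oxaliplatin library, above the vehicle libraries. The median log2 fold change over the 7 was 1.92 with cisplatin and 1.83 with oxaliplatin, beside a median of 0.003 over all tested genes in each comparison. Both comparisons use the same vehicle libraries. Without vehicle library 2 all 7 genes were called with each drug, with log2 fold changes of 1.73 to 2.17 for cisplatin and 1.18 to 2.08 for oxaliplatin.

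Between the drugs none of the 7 genes was called by edgeR, and none had an unadjusted p under 0.05; DESeq2 and limma-voom called none either. In this comparison 2 of the 17348 tested genes were called, or 0.0115%, and 0.00576% were called and at least 3-fold higher. The libraries of the drugs overlapped for all 7 genes, where 8.04% of tested genes had every cisplatin library above every oxaliplatin library. The log2 fold change of cisplatin over oxaliplatin was -0.05 for Hbb-bs (95% interval -0.71 to 0.61), 0.20 for Hbb-bt (-0.51 to 0.91), 0.08 for Hba-a1 (-0.61 to 0.78), 0.07 for Hba-a2 (-0.57 to 0.72) and 0.13 for Alas2 (-0.52 to 0.79). The intervals lie on both sides of 0, and the sign of these 5 values turned when single libraries were left out. Trim10 and Slc4a1 were somewhat higher with cisplatin, Trim10 by a log2 fold change of 0.49 (-0.21 to 1.19) and Slc4a1 by 0.55 (-0.19 to 1.29), within the spread of the libraries.

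**Figure D2:**
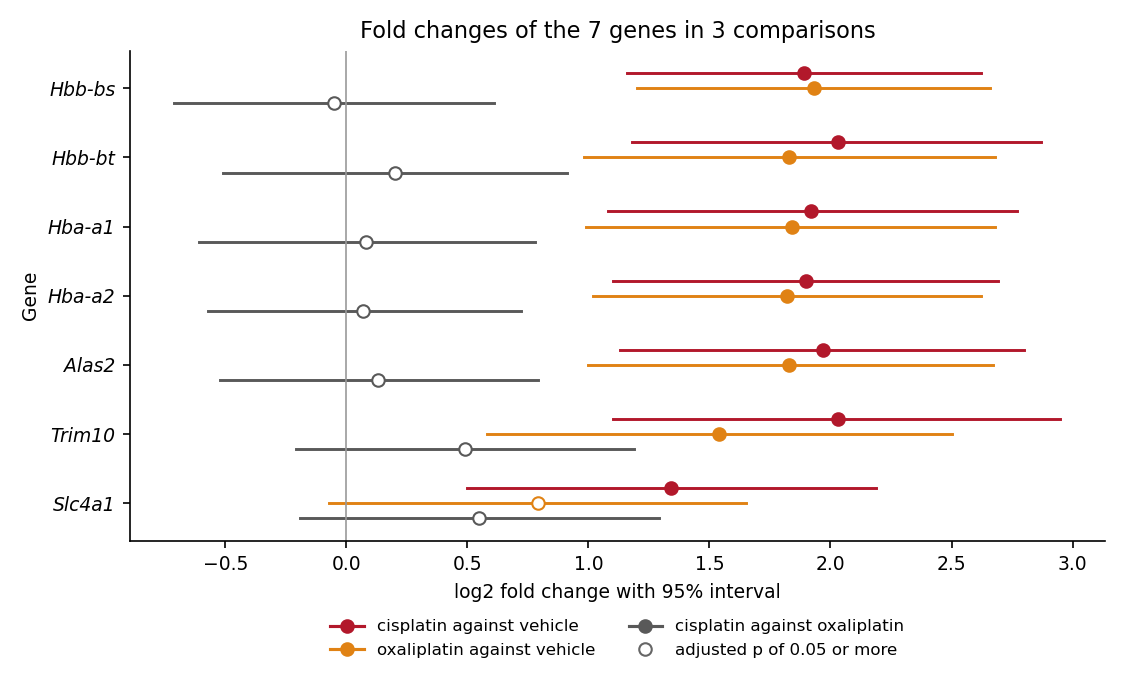
log2 fold change of each gene with its 95% interval in the 3 comparisons; open circles are values with an adjusted p of 0.05 or more. The globins, Alas2 and Trim10 lie between 1.54 and 2.03 for both drugs against vehicle, Slc4a1 lies lower, and all intervals of cisplatin against oxaliplatin include 0.

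The genes varied together within groups as well as between them. Cisplatin library 3 had 56.7 CPM of Hbb-bs beside 111 CPM or more in the other cisplatin libraries, and oxaliplatin library 1 had 52.8 CPM beside 125 CPM in the others; the same pools were lowest for the other 6 genes. Across the 9 libraries, Pearson's r of log2 CPM between pairs of the 7 genes was 0.836 to 0.996, and r of the deviations from the group means was 0.863 to 0.985. These points share library size, and the first range also holds the group differences. The lowest r was that of Hbb-bs with Slc4a1.

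Because the genes moved together, their proportions were compared by reads. Hbb-bs made up 79.9% ± 1.72 of beta globin reads with cisplatin, 82.3% ± 0.504 with oxaliplatin and 81.1% ± 1.43 with vehicle (SD, n = 3 each). Hba-a1 made up 59.8% ± 0.365 of alpha globin reads with cisplatin, 59.4% ± 1.47 with oxaliplatin and 59.4% ± 2.97 with vehicle. Alpha globin reads per 100 beta globin reads were 23.3 ± 1.30 in cisplatin, 21.7 ± 1.98 in oxaliplatin and 23.3 ± 3.74 in vehicle, and Alas2 reads per 1000 globin reads were 46.4 ± 1.95 in cisplatin, 42.2 ± 0.736 in oxaliplatin and 43.8 ± 5.97 in vehicle. So the counted globin RNA kept nearly the same make-up while its total differed several-fold. The reads lost to shared windows enter these proportions, which therefore describe counted reads and not chains made.

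Slc4a1 departed from this. There were 79.9, 79.8 and 92.1 Slc4a1 reads per 1000 globin reads in cisplatin libraries 1 to 3, 53.7, 55.7 and 58.9 in oxaliplatin libraries 1 to 3, and 86.5, 170 and 113 in vehicle libraries 1 to 3. The oxaliplatin libraries were below all others, and the cisplatin libraries overlapped the vehicle libraries. Each comparison of the oxaliplatin libraries gave p = 0.1 in a two-sided exact permutation test, the smallest p that 3 libraries against 3 allow, and the adjusted p over the 15 comparisons of proportions was 0.375. The same smallest p was reached by 2 more of the 15, both of cisplatin against oxaliplatin: Alas2 per 1000 globin reads, higher by 4.13, and the Hbb-bs share, lower by 2.35 percentage points (difference of -2.35). None passed the adjusted threshold, which this design cannot reach.

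**Figure D3:**
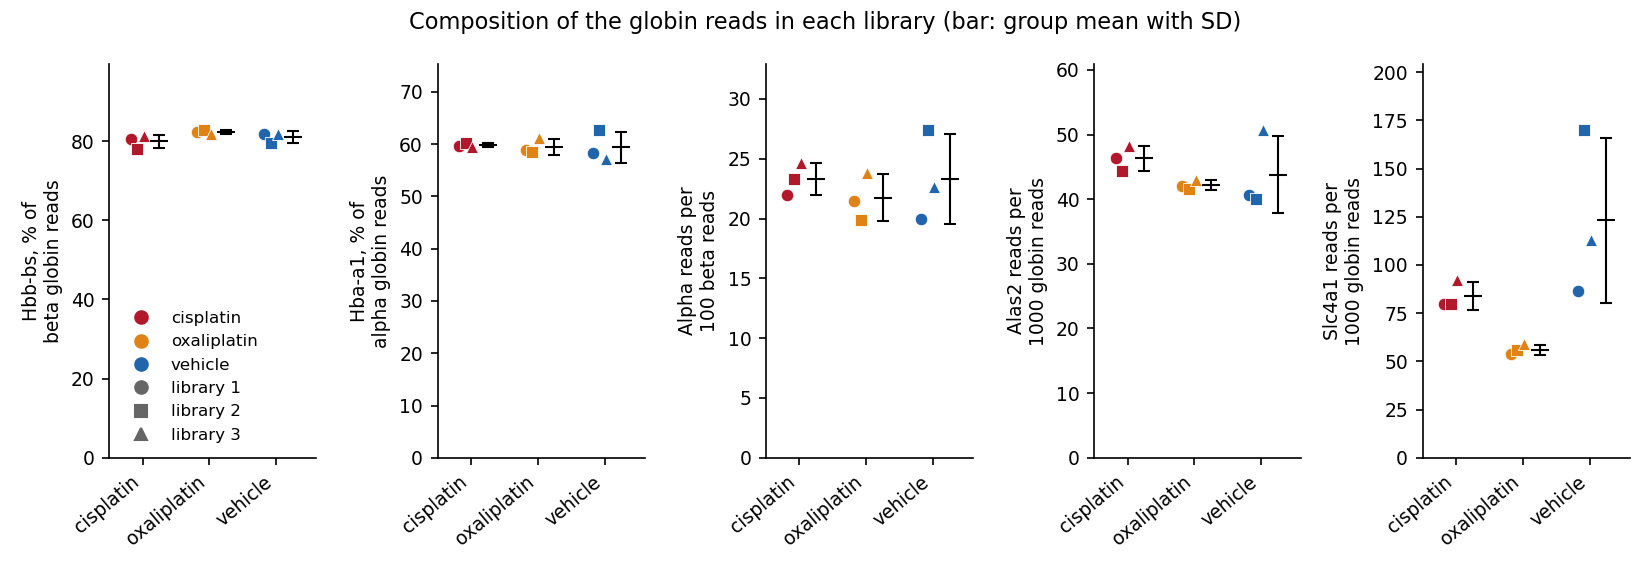
Shares and ratios of reads in each library, with the group mean and SD beside the points; all axes start at 0. The 3 oxaliplatin libraries have 53.7 to 58.9 Slc4a1 reads per 1000 globin reads and lie below the cisplatin and vehicle libraries, whereas the shares of the globin copies stay within a few percentage points in all 9 libraries.

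Levels of different genes were set side by side per kilobase of exon. In cisplatin ganglia the order was Hbb-bs (127 ± 47.3 CPM per kb, SD), Hbb-bt (35.5 ± 14.7), Hba-a1 (20.8 ± 7.14), Hba-a2 (17.0 ± 5.71), Alas2 (2.89 ± 1.01), Slc4a1 (2.54 ± 0.79) and Trim10 (0.719 ± 0.16). In vehicle ganglia it was Hbb-bs (34.6 ± 3.45), Hbb-bt (8.89 ± 1.69), Hba-a1 (5.72 ± 1.86), Hba-a2 (4.67 ± 0.992), Slc4a1 (1.05 ± 0.517), Alas2 (0.738 ± 0.129) and Trim10 (0.176 ± 0.0527), and in oxaliplatin ganglia the order was that of cisplatin. In the oxaliplatin group Hbb-bt stood at 31 ± 12.9 and Hba-a1 at 19.7 ± 8.88. These SDs are spreads between pools in which the genes rose and fell together. They therefore do not measure how firm the order of neighbouring genes is, and the order was not tested. Counted per kilobase of windows that occur in 1 gene only, the vehicle levels were 134 ± 13.4 for Hbb-bs, 34.2 ± 7.27 for Hba-a2, 22.9 ± 4.36 for Hbb-bt and 19.7 ± 6.39 for Hba-a1, so the place of Hba-a2 depends on how shared sequence is treated. On the exon scale Prph, the peripherin gene of small sensory neurons, stood at 854 ± 35.5 CPM per kb with cisplatin and 789 ± 47.2 with vehicle.

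Most of the embryonic and other globin genes of the same clusters gave no reads. Hbb-bh0, Hbb-bh1, Hbb-bh2, Hbb-bh3, Hbb-y and Hba-x had 0 reads in all 9 libraries, below the floor of 3 counts. Hbq1a, a theta globin, had 1 to 9 reads per library and was not tested. Hbq1b, its near copy, had 0.674 ± 0.0374 CPM with cisplatin, 0.546 ± 0.182 CPM with oxaliplatin and 0.542 ± 0.146 CPM with vehicle, and passed the test with neither drug (edgeR adjusted p = 0.534 for cisplatin and 0.928 for oxaliplatin). The globins best known from neurons and fibroblasts showed smaller differences: neuroglobin, Ngb, had a log2 fold change of 0.36 ± 0.10 with cisplatin (adjusted p = 0.016, edgeR) and of 0.21 ± 0.10 with oxaliplatin (adjusted p = 0.131), and cytoglobin, Cygb, of 0.22 ± 0.07 with cisplatin (adjusted p = 0.032) and 0.20 ± 0.07 with oxaliplatin (adjusted p = 0.0411). Per kilobase of exon, Cygb stood at 13.6 ± 0.674 CPM per kb with cisplatin, 13.4 ± 1.17 with oxaliplatin and 11.7 ± 0.475 with vehicle, above Alas2, Slc4a1 and Trim10 in each group.

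Of the 8 other enzymes of haem synthesis, which all cells use, 2 rose with cisplatin and 3 rose and 1 fell with oxaliplatin. Over all tested genes, 15.8% were called higher and 22.9% lower with cisplatin, and 17.5% higher and 24.1% lower with oxaliplatin. The counts of this list and of the lists below are to be read beside these shares. The median log2 fold change was 0.13 with cisplatin and 0.15 with oxaliplatin, and the count higher was 1 to 6 with cisplatin and 1 to 5 with oxaliplatin over all alternatives. Alad rose with cisplatin by a log2 fold change of 0.23 ± 0.07 (adjusted p = 0.0238, edgeR), and Alas1, the housekeeping counterpart of Alas2, rose with oxaliplatin by 0.17 ± 0.05 (adjusted p = 0.0234). Alas1 was far more abundant than Alas2, at 7.65 ± 0.344 CPM per kb of exon with cisplatin and 6.90 ± 0.294 with vehicle.

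Of 17 genes of the red cell membrane and its skeleton, 16 were tested; 8 rose and 3 fell with cisplatin, and 3 rose and 3 fell with oxaliplatin. The median log2 fold change was 0.34 with cisplatin and 0.14 with oxaliplatin. Genes best known from red cells were among those called with cisplatin. Epb4.2, which ties band 3 to the skeleton, had 2.52, 1.83 and 1.12 CPM with cisplatin, 0.491, 1.54 and 0.907 CPM with oxaliplatin, and 0.675, 0.94 and 0.39 CPM with vehicle. The cisplatin libraries were all above vehicle, and oxaliplatin libraries 1 and 3 fell among the vehicle libraries. It rose with cisplatin by a log2 fold change of 1.53 ± 0.45 (adjusted p = 0.0177, edgeR), and had a log2 fold change of 0.65 ± 0.48 with oxaliplatin (adjusted p = 0.296). Kel and Rhd, blood group antigens, rose with cisplatin, Kel by 1.27 ± 0.33 (adjusted p = 0.00953) and Rhd by 1.17 ± 0.35 (adjusted p = 0.0195). With oxaliplatin Kel had a log2 fold change of 0.30 ± 0.36 (adjusted p = 0.521) and Rhd of 0.50 ± 0.37 (adjusted p = 0.297). The count higher with cisplatin was 9 without vehicle library 2 and 3 to 10 over all alternatives, and with oxaliplatin it was 3 without that library and 2 to 6 over all alternatives.

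Of 7 erythroid transcription factors 6 were tested, and 4 rose with cisplatin and 1 with oxaliplatin. Without vehicle library 2 the counts were 4 with cisplatin and 2 with oxaliplatin, and over all alternatives 2 to 6 with cisplatin and 1 to 4 with oxaliplatin. Gata1, the master regulator of the lineage, had 17, 21 and 16 reads in the cisplatin libraries, 3, 11 and 4 reads in the oxaliplatin libraries, and 4, 4 and 3 reads in the vehicle libraries. As levels these were 0.487, 0.506 and 0.425 CPM with cisplatin, 0.0737, 0.261 and 0.104 CPM with oxaliplatin, and 0.15, 0.251 and 0.0975 CPM with vehicle, near the floor in the oxaliplatin and vehicle groups. The cisplatin libraries stood above all others and lay close together, with library 3 lowest. Gata1 rose with cisplatin by a log2 fold change of 1.62 ± 0.47 (adjusted p = 0.0166, edgeR) and had one of -0.03 ± 0.58 with oxaliplatin (adjusted p = 0.972). Nfe2, a leucine zipper factor of red cell and platelet precursors, rose with cisplatin by 1.29 ± 0.40 (adjusted p = 0.0223), as did Tal1 by 0.85 ± 0.19 (adjusted p = 0.00437). Lmo2, a bridging factor also made by endothelium, rose with both drugs, by 0.45 ± 0.12 with cisplatin (adjusted p = 0.0106) and 0.46 ± 0.12 with oxaliplatin (adjusted p = 0.00805).

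Of 18 genes of erythroid maturation, 6 rose and 3 fell with cisplatin, and 4 rose and 3 fell with oxaliplatin. The oxaliplatin count higher lies near the share of all tested genes called higher, which was 17.5% with oxaliplatin and 15.8% with cisplatin. Cldn13, a claudin of mouse erythroblasts, had 0.602, 0.723 and 0.399 CPM with cisplatin, 0.0983, 0.379 and 0.311 CPM with oxaliplatin, and 0.15, 0.313 and 0.130 CPM with vehicle. Only the cisplatin libraries were all above vehicle, and the log2 fold change was 1.67 ± 0.50 with cisplatin (adjusted p = 0.0204, edgeR) and 0.55 ± 0.57 with oxaliplatin (adjusted p = 0.465). Hemgn, hemogen, rose with cisplatin by 1.24 ± 0.30 (adjusted p = 0.00621) and had a log2 fold change of 0.38 ± 0.32 with oxaliplatin (adjusted p = 0.361). Fam46c rose with both drugs by 0.54 ± 0.17 (adjusted p = 0.0286 for cisplatin and 0.0258 for oxaliplatin). The cisplatin count was 10 without vehicle library 2 and 1 to 12 over all alternatives, so it depends heavily on single libraries.

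A call with cisplatin and none with oxaliplatin does not show that the drugs differ, and the direct comparison called none of the genes in these lists. Its log2 fold changes, cisplatin over oxaliplatin, were 1.66 ± 0.41 for Gata1 (unadjusted p = 0.00164, adjusted p = 0.576, edgeR), 1.12 ± 0.41 for Cldn13 (adjusted p = 0.734), 0.97 ± 0.29 for Kel (adjusted p = 0.64), 0.88 ± 0.38 for Epb4.2 (adjusted p = 0.767) and 0.86 ± 0.26 for Hemgn (adjusted p = 0.64). For the globins and Alas2 the same differences were -0.05 to 0.20.

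**Figure D4:**
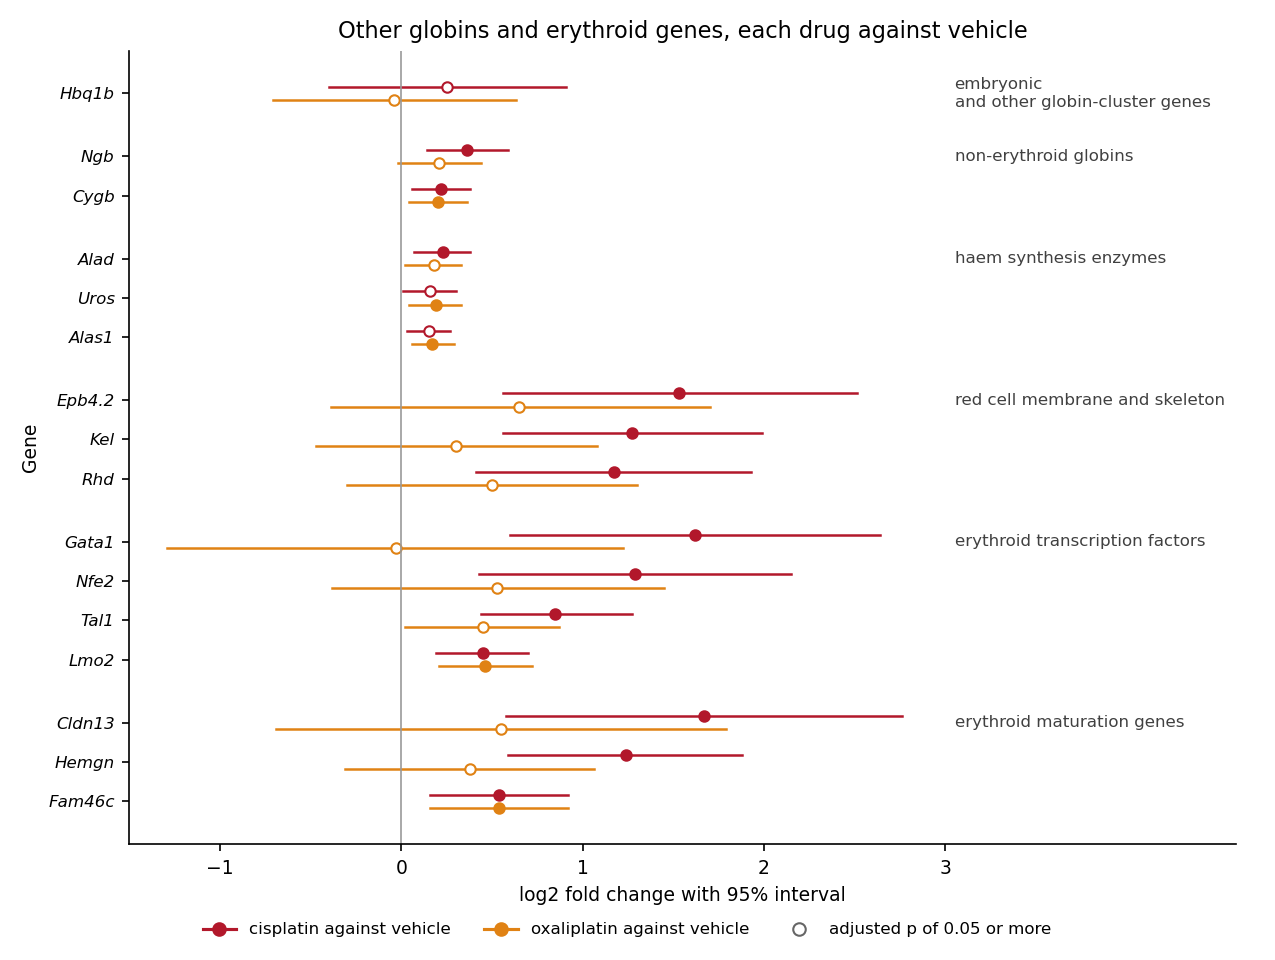
log2 fold changes with 95% intervals for named genes of 6 lists, cisplatin against vehicle (red) and oxaliplatin against vehicle (orange); open circles have an adjusted p of 0.05 or more. Lmo2 and Fam46c are called with both drugs, while Epb4.2, Kel, Rhd, Gata1, Cldn13 and Hemgn are called with cisplatin alone; the direct comparison of the drugs called none of them.

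Of 17 genes that handle iron, haem and free haemoglobin, 14 were tested; 9 rose and 1 fell with cisplatin, and 6 rose and 2 fell with oxaliplatin. Over all alternatives 5 to 10 were called higher with cisplatin and 3 to 10 with oxaliplatin. Among all tested genes, 15.8% were called higher with cisplatin and 17.5% with oxaliplatin. Hp, haptoglobin, which binds free haemoglobin and is also stored in neutrophils, had 5.25, 5.88 and 5 CPM with cisplatin, 2.41, 5.19 and 4.30 CPM with oxaliplatin, and 1.72, 3.19 and 2.02 CPM with vehicle. It rose by a log2 fold change of 1.28 ± 0.27 with cisplatin (adjusted p = 0.00295, edgeR) and of 0.84 ± 0.27 with oxaliplatin (adjusted p = 0.0274), although oxaliplatin library 1 fell among the vehicle libraries. Trf, transferrin, rose by 0.57 ± 0.10 with cisplatin (adjusted p = 0.000693) and 0.73 ± 0.09 with oxaliplatin (adjusted p = 0.000113).

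Some marker lists of other cells that blood, marrow or vessels could bring were higher with the drugs, and others were not. Their part in the globin result was not tested. Beside the counts of these lists, 15.8% of all tested genes were called higher with cisplatin and 17.5% with oxaliplatin, and 22.9% and 24.1% lower. Of 19 genes of neutrophils and their precursors, 19 rose with cisplatin and 15 with oxaliplatin, with none at 0; over all alternatives 15 to 19 were called higher with cisplatin and 6 to 18 with oxaliplatin. Their summed level was 323, 286 and 204 CPM in cisplatin libraries 1 to 3, 109, 243 and 226 CPM in oxaliplatin libraries 1 to 3, and 70.1, 124 and 53.3 CPM in vehicle libraries 1 to 3. Cisplatin library 3 and oxaliplatin library 1 were again the low drug pools, and the oxaliplatin pool was below vehicle library 2. S100a8, a calcium-binding protein of neutrophils, rose by a log2 fold change of 1.97 ± 0.37 with cisplatin (adjusted p = 0.0016, edgeR) and of 1.47 ± 0.37 with oxaliplatin (adjusted p = 0.00822). Ctsg, a granule protease of precursors in the marrow, rose with cisplatin by 2.09 ± 0.42 (adjusted p = 0.00238) and had a log2 fold change of 1.22 ± 0.46 with oxaliplatin (adjusted p = 0.0503).

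Of 12 endothelial genes 8 rose with cisplatin and 11 with oxaliplatin. Without vehicle library 2 the counts were 7 with cisplatin and 8 with oxaliplatin, and over all alternatives 5 to 12 with cisplatin and 6 to 12 with oxaliplatin. Their sum was 176 to 228 CPM with cisplatin, 192 to 207 CPM with oxaliplatin and 124 to 155 CPM with vehicle. The low drug pools of the globins were not set apart here: cisplatin library 3 had 182 CPM and oxaliplatin library 1 had 192 CPM. Plvap, a protein of fenestrated vessels, rose by 1.05 ± 0.13 with cisplatin (adjusted p = 8.75e-05, edgeR) and by 1.15 ± 0.12 with oxaliplatin (adjusted p = 3.86e-05). Of 8 macrophage genes 7 rose with cisplatin and 6 with oxaliplatin, among them C1qb by 0.70 ± 0.08 with cisplatin (adjusted p = 8.5e-05) and 0.76 ± 0.08 with oxaliplatin (adjusted p = 3.59e-05).

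Platelet genes did not follow the globins in oxaliplatin ganglia. Of 12 listed, 9 were tested and 1, Pf4, rose with each drug, by 1.0 ± 0.19 with cisplatin (adjusted p = 0.00155, edgeR) and 0.52 ± 0.19 with oxaliplatin (adjusted p = 0.0469). Without vehicle library 2, 5 of the 9 were called higher with cisplatin and 1 with oxaliplatin. The summed level was 22.0 to 25.5 CPM with cisplatin, 13.4 to 16.6 CPM with oxaliplatin and 11.7 to 23.7 CPM with vehicle, where library 2 gave the highest value. The median log2 fold change was 0.47 with cisplatin and -0.65 with oxaliplatin against vehicle, and 1.10 for cisplatin over oxaliplatin, where 9 of 9 were positive, 8 had an unadjusted p under 0.05 and none was called by edgeR, DESeq2 or limma-voom. In the lymphoid lists, 3 of 7 tested B lineage genes rose and 1 fell with cisplatin, with 1 higher and 1 lower with oxaliplatin, and 0 of 4 tested T lineage genes rose with cisplatin and 1 with oxaliplatin. Of 12 genes of bone and osteoclasts 9 were tested, and 2 rose with cisplatin and 1 rose and 1 fell with oxaliplatin. With oxaliplatin Ctsk rose by 0.76 ± 0.17 (adjusted p = 0.00345, edgeR) and Runx2 fell by 0.44 ± 0.13 (adjusted p = 0.0163, edgeR). The summed level of the list overlapped between groups, at 179 to 210 CPM with cisplatin, 172 to 193 CPM with oxaliplatin and 184 to 190 CPM with vehicle. Bglap, the osteocalcin gene of bone-forming cells, had too few reads to be tested. Its raw counts were 3 to 9 with cisplatin, 0 to 5 with oxaliplatin and 0 or 1 with vehicle. Of 12 cell division genes 9 rose with cisplatin and 4 with oxaliplatin, with sums of 57.4 to 68.2 CPM with cisplatin, 41.9 to 49.3 CPM with oxaliplatin and 36.7 to 45.5 CPM with vehicle. The shares of these lists in the globin difference were not tested.

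**Figure D5:**
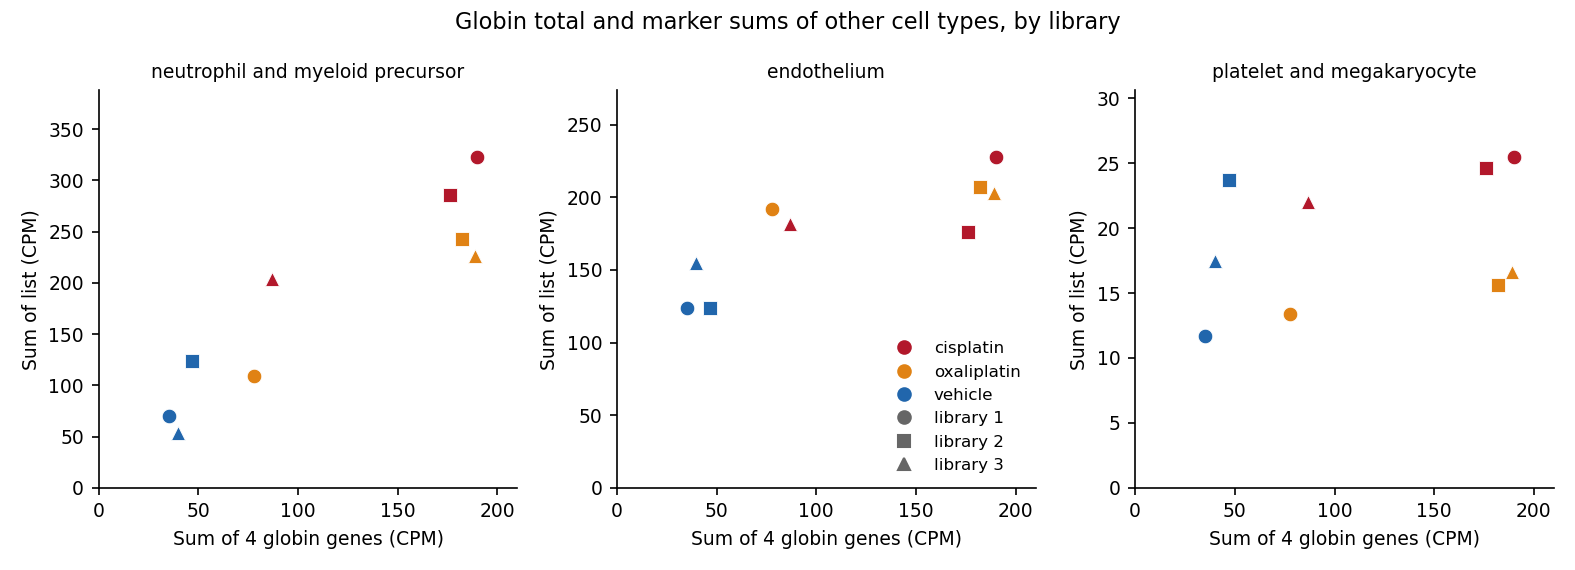
Sum of the 4 globin genes (x axis, CPM) and summed level of 3 marker lists (y axes, CPM) in each library; colours are groups and symbols library numbers. The neutrophil sum is 204 CPM or more in all cisplatin libraries and at most 124 CPM in vehicle, with oxaliplatin library 1 at 109 CPM, whereas the platelet sum of the oxaliplatin libraries, 13.4 to 16.6 CPM, lies within the vehicle range.

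The genes whose pattern over the 9 libraries was most like the mean of the 7, by Pearson's r of log2 CPM, were Chi3l1 (r = 0.985), Tmem218 (0.981), Lyz2 (0.977), Romo1 (0.976), Mta2 (0.973), Gm6265 (0.973), Surf1 (0.972), Cmtm6 (0.972), Cyp4f18 (0.972) and Cd48 (0.971). These are the top 10 of all tested genes outside the 7, and none belongs to a list used here. Their r of deviations from the group means was 0.906 to 0.975. Their fold changes were smaller than those of the globins: Lyz2, the lysozyme of macrophages and neutrophils, had a log2 fold change of 1.05 with cisplatin and 0.79 with oxaliplatin, and Mta2 had 0.19 with each.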

How the data were processed

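The files hold counts, raw reads per gene symbol as the authors deposited them, for 9 libraries; STAR, SAMtools, HTSeq and the build mm10 (GRCm38) are named in the submitters' processing notes, without versions. The strand setting and annotation of the counting were not found in the labels, so antisense and overlapping reads cannot be told apart. Reads in 5 classes assigned to no gene, 42.8 to 74.5% of recorded reads, were left out.

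All 9 libraries were fitted in edgeR 4.0.16 (R 4.3.3, limma 3.58.1) with 1 term per group, TMM scaling and filterByExpr, and tested with the quasi-likelihood F test; a gene was called when its Benjamini-Hochberg adjusted p over the 17348 was under 0.05. Each SE was taken as |log2 fold change| divided by √F. For proportions, 15 exact permutation tests were run, all two-sided (scipy 1.17.1). The fits were checked on simulated data, where 200 genes had known fold changes. Floors and p-values cover the spread between pools and counting error only.

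The 7 genes and the 16 other lists were chosen with earlier results of these data known. From each list were named the called genes of largest change with cisplatin, at most 4, or the 2 of smallest p where none was called, and a few of these are not reported here; genes listed at 0 or left untested, Bglap, Prph and the order of levels were added after the values were seen. Older symbols in the tables (6 of 197 listed) were matched through RefSeq synonyms, and 1, Ahsp, was not analysed here. Alternatives were median-ratio size factors, library totals, other filters, limma-voom, DESeq2 1.42.0, a replicate term, fits of the groups compared alone, summed globin pairs, structural RNAs removed and leaving out each library. Removal of GC and length trends (mgcv 1.9.3) was chosen after seeing the data.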

Additional observations from a re-analysis of the deposited data

How the results depend on the processing

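Against vehicle, the 4 globins and Alas2 stayed called with both drugs under every alternative run, with log2 fold changes of 1.60 to 2.36 for cisplatin and 1.53 to 2.27 for oxaliplatin. Trim10 with oxaliplatin had 1.38 with limma-voom and 1.31 to 1.92 with libraries left out. Slc4a1 with oxaliplatin passed the threshold with library totals (1.12) and with no filter (0.85), and ranged over 0.54 to 1.18 with libraries left out; with cisplatin that range was 1.09 to 1.73. With library totals the prior degrees of freedom were infinite, so all genes shared the trended spread and p-values became very small; the median of all genes was 0.29 with cisplatin and 0.30 with oxaliplatin, 5987 genes were called higher and 917 lower with cisplatin (2744 and 3971 in the analysis reported), and 6408 and 996 with oxaliplatin (3043 and 4178).

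For cisplatin against oxaliplatin, leaving out libraries gave -0.36 to 0.23 for Hbb-bs, -0.12 to 0.51 for Hbb-bt, -0.24 to 0.39 for Hba-a1, -0.24 to 0.33 for Hba-a2 and -0.18 to 0.39 for Alas2, none called; the summed beta pair had 0.00. The count of all genes called, 2, was 68 with library totals, 16 with no filter, 14 with DESeq2, 1 with limma-voom, 1 with the 1 CPM filter, 0 in the fit of these groups alone and 0 to 2 with libraries left out. The causes were not tested.

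Same-numbered libraries did not deviate together (r of -0.14 to 0.105, beside -0.228 to 0.213 for other pairs across groups). With 3 libraries per group this cannot show whether same-numbered pools were handled together. With the replicate block 0 genes were called between the drugs, and 7 and 6 of the 7 genes stayed called against vehicle.

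Uncalled values that changed sign were Hbq1b with cisplatin (-0.03 with trends removed), Hbq1b with oxaliplatin (0.24 with library totals, 0.01 with no filter, -0.20 to 0.20 with libraries left out) and Gata1 with oxaliplatin (0.25 with library totals, 0.01 with no filter, -0.75 to 0.31 with libraries left out). So did differences in proportions with libraries left out: alpha per 100 beta reads, -1.69 to 2 (cisplatin against vehicle) and -3.28 to 0.413 (oxaliplatin against vehicle); the Hba-a1 share, -0.169 to 1.18 between the drugs, -0.771 to 2.06 with cisplatin and -1.11 to 1.72 with oxaliplatin; and Alas2 per 1000 globin reads with oxaliplatin, -3.41 to 1.89. A pseudocount of 0.5 changed no direction. Depth limits Trim10 and Gata1, which had 7 to 15 and 3 or 4 reads per vehicle library.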
